A study of Homo sapiens with 8 samples.

Results

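The change in RNA level after knockdown of DDX3X was measured in HT-144 cells, a human line established from a melanoma. The change itself is taken from 4 of the 8 libraries of the series: 2 of total RNA after siRNA against DDX3X and 2 of total RNA after control siRNA. The other 4 libraries hold polysomal RNA, the RNA bound by several ribosomes, from the same pair of siRNAs. They serve for comparison, and they also enter the choice of tested isoforms and the spread behind the p-values. Of 65514 usable transcript isoforms, the 15531 listed at 1 FPKM or more in 2 or more of the 8 libraries entered the test. FPKM is the number of fragments relative to isoform length and to all mapped fragments, so isoforms of different length can be set side by side. The labels give no dose or time for the siRNAs and name no other treatment. All libraries come from a single cell line. Whether the replicates are separate cultures is not stated. The label for the replicate experiment has the same number for both libraries of a group, so replicate numbers here are those of the titles. If the cultures are not separate, the p-values reflect technical spread only.

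DDX3X is an X-linked DEAD-box RNA helicase that unwinds structured RNA and is known for its part in the initiation of translation. Total RNA gives the level of each message in the cells, and polysomal RNA its level among the messages bound by several ribosomes. In FPKM both are relative to all mapped fragments of the library, so polysomal FPKM alone does not give how much of a message is translated. In melanoma, DDX3X has been studied as a regulator of MITF, the transcription factor of the melanocyte lineage. The deposited table gives UCSC-style isoform identifiers and does not pair them with gene names. DDX3X, MITF, melanocyte markers and other gene groups were therefore not analysed here, the strength of the knockdown and the lineage of the cells were not checked, and results are given for isoforms by direction, size and level. No tested isoform was matched to a gene, so no sequence is shown.

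With DDX3X siRNA, 87 isoforms rose and 33 fell in total RNA (limma adjusted p under 0.05), which is 0.560% and 0.212% of those tested, or 0.773% together. The rises had a median log2 change of 1.09, with quartiles at 0.92 and 1.53. The falls had a median of -0.97, with quartiles at -0.76 and -1.18. For comparison, the median over all tested isoforms was 0.04, with 54.6% of them above 0 and 45.3% below. That median was -0.01 after median-of-ratios scaling and after quantile normalization. Log2 changes are on the log2(FPKM + 1) scale, which understates the change of low isoforms. Changes of 2-fold or more on this scale made up 53 of the rises and 16 of the falls, and changes of 4-fold or more made up 11 and 5.

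**Figure D1:**
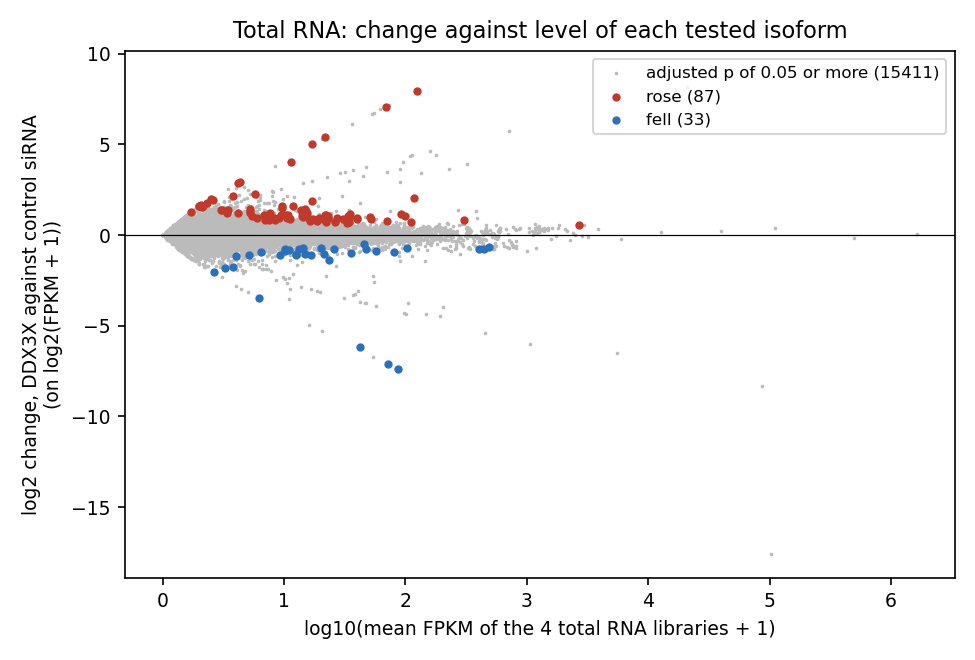
Log2 change with DDX3X siRNA in total RNA (vertical axis, difference of group means of log2(FPKM + 1)) against the mean level in the 4 total RNA libraries (horizontal axis, log10(FPKM + 1)), 1 point per tested isoform. The 87 isoforms that rose and the 33 that fell lie at or beyond 0.55 and -0.51, and many points with equal or larger changes did not pass the test.

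A large change alone did not make a call. A log2 change of 1 or more in either direction was seen in 710 isoforms, 433 up (2.79% of those tested) and 277 down (1.78%). Of the 710, 641 did not pass the test, 298 had a mean under 2 FPKM, and in 131 the libraries of both siRNAs overlapped. In all 87 rises and all 33 falls both libraries of one siRNA lay above both of the other. For 9 of them, listed at 0 in every other library, the filter fixed this in advance. Over all tested isoforms the DDX3X libraries lay wholly above the control libraries in 29.9% and wholly below in 22.9%. Among the rises, the lowest DDX3X library lay above the highest control library by a median of 0.97 on the log2 scale. The larger of their replicate differences had a median of 0.21. Among the falls this gap had a median of 0.83 and the larger replicate difference one of 0.23. The gap between siRNAs was thus wider than the gap between replicates in each of the 120 isoforms, which is in part what the test selects.

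The calls were spread unevenly over the levels. At a mean level in total RNA of 20 FPKM or more there were 29 rises and 15 falls among 2315 isoforms, or 1.25% and 0.648%. Those between 5 and 20 FPKM gave 34 and 13 among 4107, and those between 2 and 5 FPKM gave 14 and 4 among 3739. Below 2 FPKM, 10 rose and 1 fell among 5370, or 0.186% and 0.0186%. The median standard error of the log2 change was 0.127 in the highest class and 0.286 in the lowest, so a low isoform needed a larger change to pass. The isoforms that rose had a median of 5.71 FPKM with control and 18.9 FPKM with DDX3X siRNA. Those that fell had a median of 21.7 FPKM with control and 8.83 FPKM with DDX3X siRNA. Averaged over the 4 total RNA libraries, the median level was 13.1 FPKM among the rises and 15.7 FPKM among the falls. The highest mean level was 2711 FPKM among the rises and 488 FPKM among the falls.

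Across all tested isoforms, the siRNAs differed more than replicates did, and the contrast was wider at higher levels. At 20 FPKM or more the median absolute log2 difference was 0.0835 between the control replicates and 0.0912 between the DDX3X replicates. Between a control and a DDX3X library it ran from 0.197 to 0.221 over the 4 possible pairs. Below 2 FPKM the replicates differed by 0.317 and 0.295, and libraries of different siRNAs by 0.356 to 0.370. Each value compares 2 single libraries, so they can be set side by side. At a limma unadjusted p under 0.05, 1747 isoforms lay higher (11.2%) and 1109 lower (7.14%) with DDX3X siRNA. This excess of higher isoforms depended on the scaling, with 1659 higher and 1823 lower after median-of-ratios scaling and 1750 and 1736 after quantile normalization. Just past the threshold, at adjusted p from 0.05 to 0.1, lay another 343 higher and 205 lower isoforms, so the length of the called list depends strongly on where the threshold lies.

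**Figure D2:**
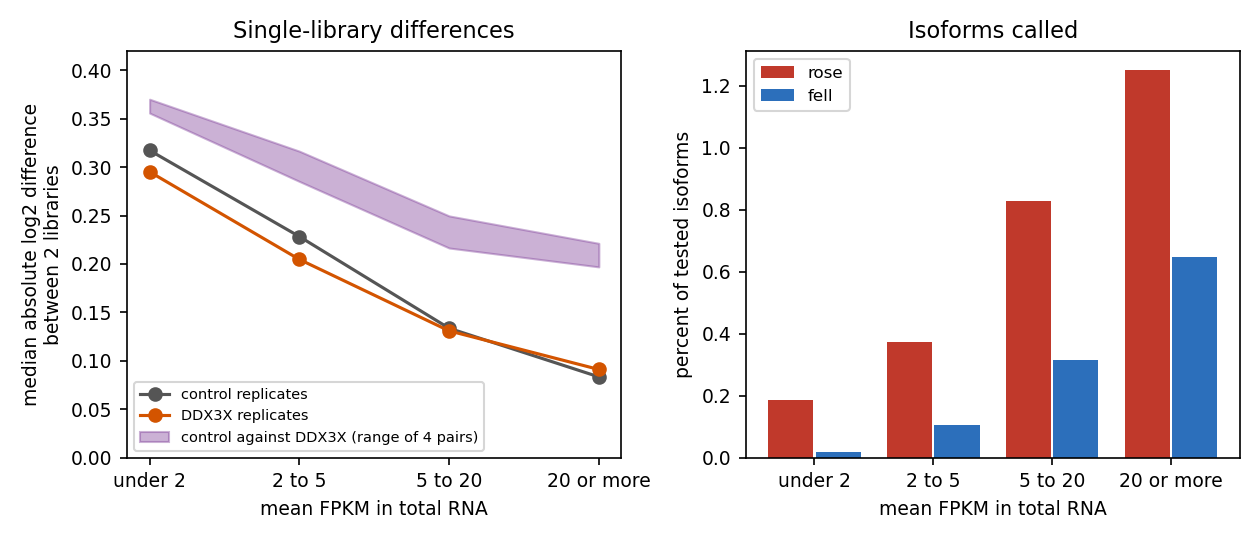
Left, median absolute log2 difference between single total RNA libraries for 4 classes of mean FPKM, within each siRNA (lines) and between siRNAs (band, range of 4 pairs). Right, percent of tested isoforms of each class that rose or fell. Between-siRNA differences exceed replicate differences in each class, by most at 20 FPKM or more (0.197 to 0.221 against 0.0835 and 0.0912), where 1.25% rose and 0.648% fell.

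The called isoforms lay farther from the controls in DDX3X replicate 2 than in replicate 1. Among the rises, 69 of 87 were higher in DDX3X replicate 2 than in replicate 1, and among the falls only 7 of 33 were. Over all tested isoforms 60.6% were higher in replicate 2. Setting replicate 1 against control replicate 1, the rises had a median log2 difference of 1.05 and the falls one of -0.87. For the replicates numbered 2 these were 1.15 and -1.01. The isoforms were chosen on these libraries, which fixes the equal direction in both replicates, and the numbers were not shown to pair the libraries. Pearson correlations of log2 values were 0.925 between the control and 0.929 between the DDX3X replicates, and 0.905 to 0.919 across siRNAs. Most of the FPKM in these libraries belonged to very few isoforms: the 10 highest held 89.2% to 90.8% of the FPKM sum of each total RNA library. The remaining FPKM came to between 311646 and 343223, and median-of-ratios factors ran from 0.949 to 1.04. The polysomal libraries were less alike. Their 10 highest isoforms held 42.2% (control replicate 2) to 93.5% (DDX3X replicate 1) of the FPKM sum. Their factors ran from 0.985 to 1.18 (DDX3X replicates 1 and 2). Polysomal changes are given without scaling between libraries.

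The isoforms named here had the largest changes among those called that were never under 1 FPKM in total RNA and averaged 5 FPKM or more in their higher group. The rule also required no overlap of the groups in total RNA. It was met by 63 rises and 25 falls, and the first 2 in each direction are given. Their separation and adjusted p under 0.05 in total RNA were thus fixed by the choice, and ranking by size favours overstated changes.

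Isoform uc001boo.1 had the largest rise among the isoforms that met this rule. Some called isoforms that were under 1 FPKM or at 0 in some total RNA library had larger changes. In total RNA it stood at 46.8 and 41.8 FPKM in the control libraries and at 139.5 and 239 FPKM in the DDX3X libraries. Both DDX3X libraries were far above both controls, and they also differed from each other more than the controls did. The control mean was 44.3 ± 3.57 FPKM and the DDX3X mean 189 ± 70.3 FPKM (SD, n = 2 each), a ratio of 4.27. The log2 change was 2.02 ± 0.27 (SE), with a limma adjusted p = 0.0451 and a 95% interval of 1.37 to 2.67. In polysomal RNA the isoform stood at 81.6 and 65.0 FPKM with control and at 253 and 345 FPKM with DDX3X siRNA, again without overlap. That log2 change, 2.01 ± 0.27 (SE), narrowly missed the threshold (limma adjusted p = 0.0537). The changes in both fractions differed by -0.01 ± 0.39 (SE), which did not pass (limma adjusted p = 1.00).

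Isoform uc011brc.1 stood at 6.55 and 6.17 FPKM in the control and at 24.1 and 27.6 FPKM in the DDX3X libraries of total RNA. The replicates lay close together in both groups, and the groups were well apart. The mean went from 6.36 ± 0.271 to 25.9 ± 2.46 FPKM (SD, n = 2), a ratio of 4.07, and the log2 change was 1.87 ± 0.22 (SE; limma adjusted p = 0.0349). In polysomal RNA it was at 12.2 and 8.26 FPKM with control and at 23.1 and 16.5 FPKM with DDX3X siRNA. The groups did not overlap there either, but the log2 change of 0.89 did not pass (limma adjusted p = 0.132). The polysomal change was smaller than that in total RNA by 0.98 ± 0.31 (SE) on the log2 scale, a difference that did not pass (limma adjusted p = 0.554).

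Isoform uc003oiu.3 had the largest fall among the isoforms that met this rule. It stood at 37.2 and 28.4 FPKM in the control and at 12.3 and 11.4 FPKM in the DDX3X libraries of total RNA. The control replicates were farther apart than the DDX3X replicates, and the lower control was still above both. The mean went from 32.8 ± 6.24 to 11.8 ± 0.665 FPKM (SD, n = 2), so that control was 2.77 times as high, and the log2 change was -1.39 ± 0.18 (SE; limma adjusted p = 0.0431). In polysomal RNA it was at 35.0 and 27.6 FPKM with control and at 18.7 and 15.4 FPKM with DDX3X siRNA. The order of the groups was the same, and the log2 change of -0.83 did not pass (limma adjusted p = 0.105).

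Isoform uc001ihq.3 stood at 10.3 and 13.0 FPKM in the control and at 4.42 and 5.26 FPKM in the DDX3X libraries of total RNA. The mean went from 11.6 ± 1.96 to 4.84 ± 0.593 FPKM (SD, n = 2), so that control was 2.40 times as high, and the log2 change was -1.11 ± 0.16 (SE; limma adjusted p = 0.0489). Replicates of a group lay closer together than the groups did, with the control replicates farther apart than the DDX3X replicates. In polysomal RNA it was at 6.29 and 6.21 FPKM with control and at 3.50 and 2.85 FPKM with DDX3X siRNA, a log2 change of -0.80 that did not pass (limma adjusted p = 0.0984). All 4 isoforms thus lay on the same side in both fractions. For neither falling isoform did the difference between fractions pass (limma adjusted p = 0.725 for uc003oiu.3 and 0.867 for uc001ihq.3).

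**Figure D3:**
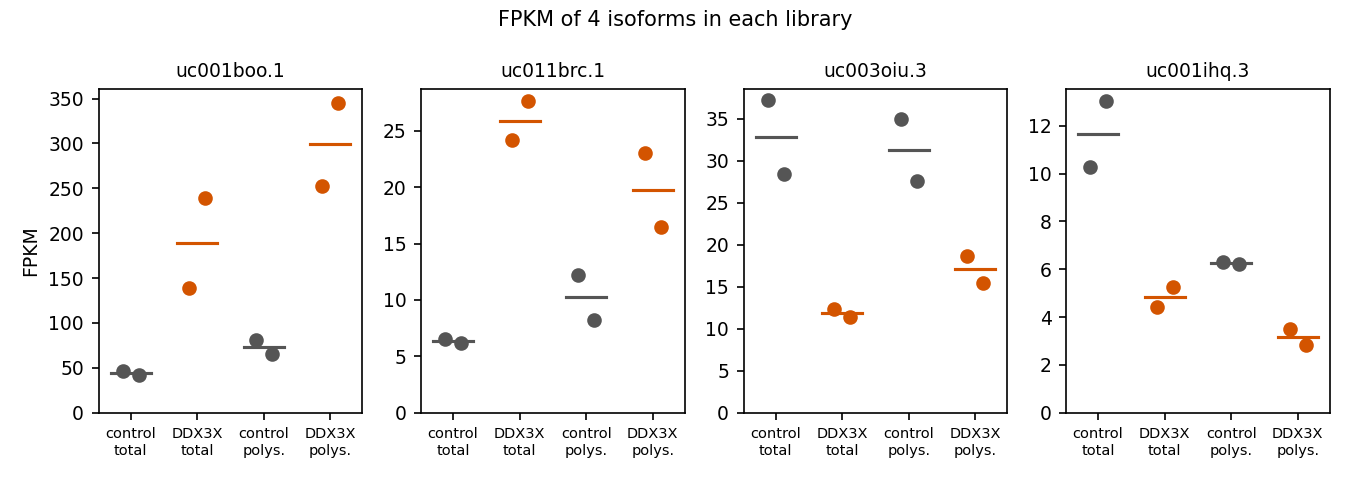
FPKM of uc001boo.1, uc011brc.1, uc003oiu.3 and uc001ihq.3 in each of the 8 libraries (points; replicate 1 left, replicate 2 right) with the group mean (line), each panel on its own axis from 0. In total RNA both DDX3X libraries lie above both controls for the first 2 isoforms and below both for the last 2, as the rule that chose them requires. The polysomal libraries show the same order.

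The polysomal libraries, whose values do not enter the log2 change in total RNA, gave a second set of values for the isoforms called in total RNA. Whether both fractions came from the same cultures is not known here. If they did, differences between cultures would appear in both, and an equal direction would not be an independent replication. Of the 87 that rose, 64 had a polysomal log2 change above 0, 18 below 0, and 5 were listed at 0 in all 4 polysomal libraries. Of the 33 that fell, 27 lay below 0, 2 above 0 and 4 were listed at 0 throughout. Over all tested isoforms, 47.1% of polysomal changes lay above 0 and 52.6% below. In 61 of the 87 (70.1%) both DDX3X polysomal libraries were above both controls, against 22.1% of all tested isoforms. In 26 of the 33 (78.8%) both were below, against 23.5% of all. The opposite order was seen in 11 of the 87 and in 1 of the 33. The limma test in polysomal RNA called 13 of the 87 higher and 3 of the 33 lower, where it called 0.167% of all isoforms higher and 0.122% lower (0.290% together). It called 0 in the opposite direction, but with so few calls among all isoforms nothing is read from that 0. At a limma unadjusted p under 0.05 in polysomal RNA, 50 of the 87 lay in the same direction and 5 in the opposite one. Of the 33, 24 lay in the same direction and 1 in the opposite one. The share over all tested isoforms at this unadjusted threshold is not given here.

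The spread that entered the calls came from all 8 libraries, so isoforms with little polysomal spread were more readily called. Isoforms were therefore also chosen on the 4 total RNA libraries alone, at a limma unadjusted p under 0.05, a choice made after the data had been seen. Of 1871 such isoforms higher with DDX3X siRNA and present in polysomal RNA, 1356 (72.5%) had a polysomal change above 0, and 888 (47.5%) had both polysomal DDX3X libraries above both controls. The reverse order was seen in 185 (9.89%). Of 1279 lower isoforms, 1104 (86.3%) had a polysomal change below 0, and 798 (62.4%) had both DDX3X libraries below. The reverse order was seen in 49 (3.83%). Chosen this way, 12.1% of tested isoforms were higher and 8.27% lower. The share without overlap was thus smaller than among the 120 calls and still above the 22.1% and 23.5% of all isoforms.

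The polysomal changes were mostly smaller than those in total RNA. Among the 82 rises above 0 in every library, the median log2 change was 1.09 in total RNA and 0.46 in polysomal RNA, and 71 had the smaller change in polysomal RNA. Among the 29 such falls, the medians were -0.91 and -0.60, and 24 had the smaller change. The isoforms were chosen for their total RNA change, which alone favours a smaller value in libraries that did not enter the choice, so these medians are a description. The test of the difference between fractions passed (limma adjusted p under 0.05) for 12 of the 120 called isoforms and for 0.116% of all tested. This test contains the total RNA values that chose the 120, so nothing is read from these shares, and 9 of the 12 were listed at 0 in all polysomal libraries. Among the rises the gap was widest for the largest changes. The classes were cut on the total RNA change, which alone favours this, so it too is a description. The 18 rises of 1.5 or more on the log2 scale had a median of 1.70 in total and 0.20 in polysomal RNA, and 11 of them lay above 0 in the latter. The median level of these 18 was low, at 2.19 FPKM, but they include uc001boo.1, with a mean of 117 FPKM in total RNA. The 30 rises between 1 and 1.5 had medians of 1.20 and 0.71, and 26 lay above 0. The 28 between 0.75 and 1 had medians of 0.90 and 0.44, and 23 lay above 0. The 6 under 0.75 had medians of 0.72 and 0.62, and 4 lay above 0.

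**Figure D4:**
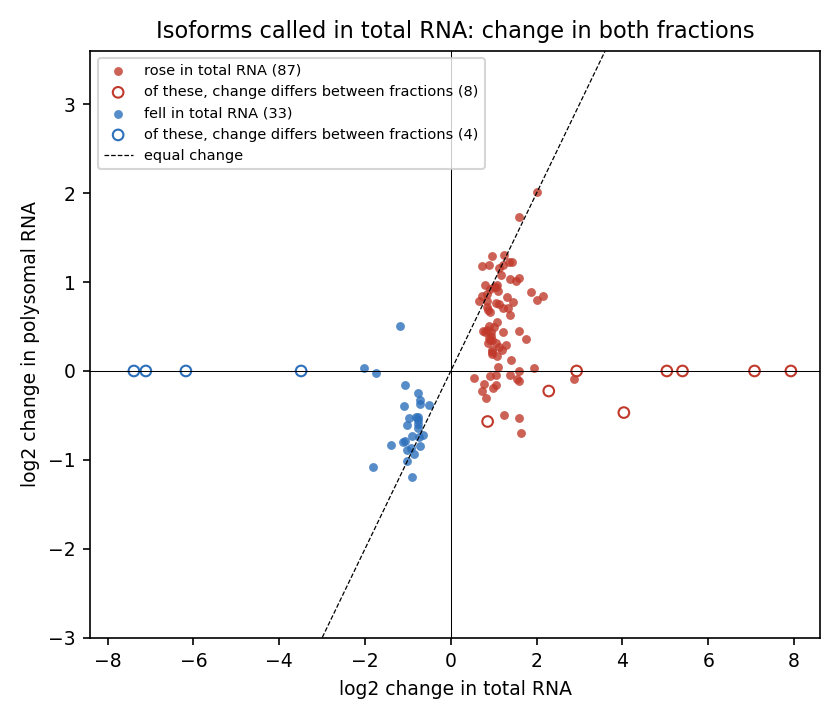
Log2 change with DDX3X siRNA in polysomal RNA (vertical) against total RNA (horizontal) for the 120 isoforms called in total RNA; open circles mark the 12 whose changes differed between fractions by the test of the difference, and the dashed line marks equal change. Of the 120 points, 91 lie in the quadrants of equal sign, and the 9 at a polysomal change of exactly 0 are listed at 0 in all polysomal libraries.

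A separate group of calls came from isoforms listed at 0 with one siRNA. In total RNA, 14 isoforms were listed at 0 in both control libraries and at 1 FPKM or more in both DDX3X libraries, and 10 showed the reverse. Of the 14, 5 were called, and of the 10, 4 were called. All 9 were also listed at 0 in all 4 polysomal libraries. They thus passed the filter only through the total RNA libraries where they were above 0, which fixed their direction and lack of overlap. Groups listed at 0 throughout add no spread to the fit, which favours a call, so nothing is read from these 9 calls. Where above 0, these 9 isoforms stood between 5.95 and 295 FPKM among the 5 rises and between 8.50 and 215 FPKM among the 4 falls. The other 15 isoforms were above 0 in some polysomal library, were not called, and reached up to 174.5 FPKM and 261000 FPKM. An exact 0 in such a table can be a failed estimate, also at these levels, so no fold is given for these isoforms. Without them the calls are 82 rises, up to a log2 change of 4.03, and 29 falls, down to -2.02. The rise of 4.03 went from a mean of 0.293 to 20.5 FPKM in total RNA. In polysomal RNA that isoform was at 51.0 FPKM with control and 36.0 FPKM with DDX3X siRNA. Whether its low control value in total RNA is a failed estimate was not tested.

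The number of calls rested on single libraries. Without DDX3X total RNA replicate 1 the fit called 0 rises and 5 falls, and without replicate 2 it called 0 rises and 8 falls (limma adjusted p under 0.05). At an unadjusted p under 0.05 these fits still placed 1361 and 911 isoforms higher and 843 and 904 lower. Without control total RNA replicate 1 there were 15 rises and 1 fall, and without replicate 2 there were 24 and 3. Without a control polysomal library there were 12 rises and 5 falls in either case, and without DDX3X polysomal replicates 1 and 2 there were 140 and 154 rises and 75 and 81 falls. Fitted on the 4 total RNA libraries alone, 10 isoforms rose and 5 fell. With 2 libraries against 2, an exact permutation test of a single isoform cannot give a two-sided p below 0.333, so every call rests on the spread pooled across isoforms and groups. More isoforms rose than fell in 17 of 20 alternative settings, the exceptions being those without either DDX3X total RNA library and the replicate block on the 4 total RNA libraries, which called 0 in each direction (limma; 1714 higher and 1167 lower at an unadjusted p under 0.05). Rises made up 72.5% of the calls as reported, 57.3% after quantile normalization and 53.3% after median-of-ratios scaling. All 4 isoforms named above had the same sign in each of the 20 settings, and they passed the threshold in 9 (uc001boo.1, uc011brc.1 and uc001ihq.3) or 10 (uc003oiu.3) of them.

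**Figure D5:**
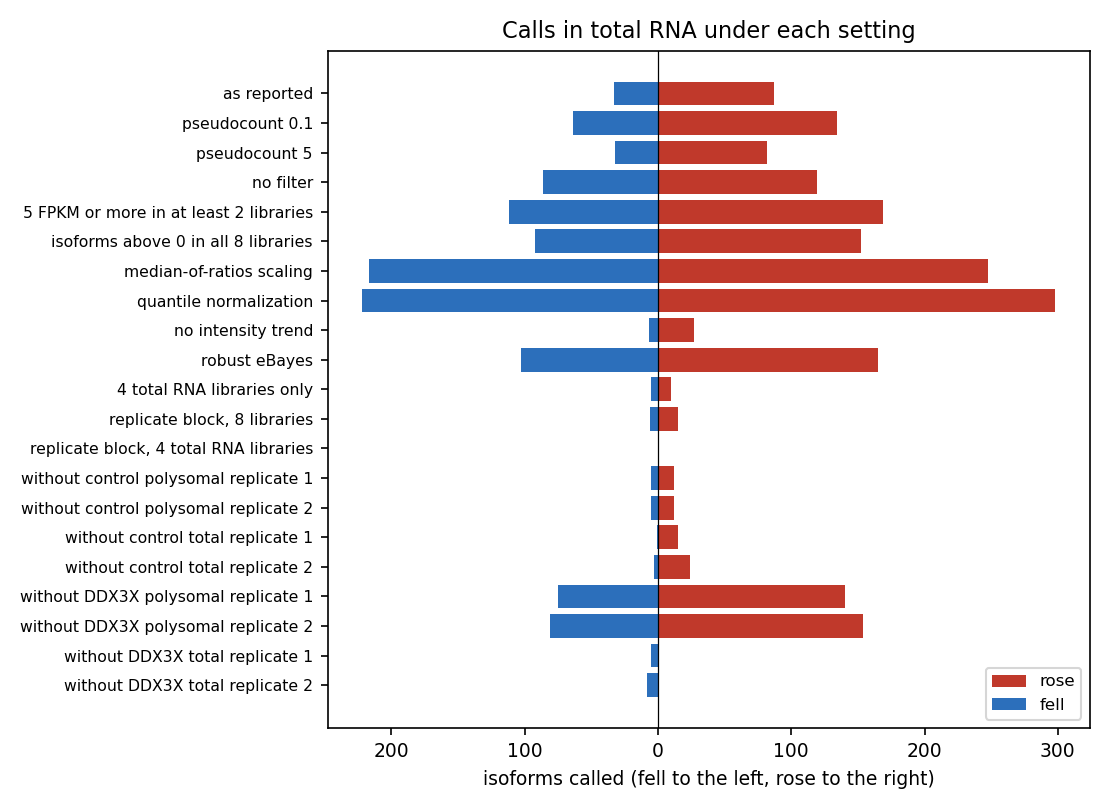
Number of isoforms that rose (right) and fell (left) in total RNA at a limma adjusted p under 0.05, as reported (87 and 33) and under each of 20 alternative settings. Scaling between libraries lengthens both lists (up to 298 and 222), and leaving out either DDX3X total RNA library leaves 0 rises.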

How the data were processed

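Libraries of total and polysomal RNA gave read pairs of 75 bp, per the labels' protocols. TopHat2, Cufflinks 2.2.1 and build hg38 were used, per the submitters' processing notes; the annotation used and the settings are not given in the sources used here. What the authors deposited is a table of FPKM per isoform (unit read from the values and tools), in 65535 rows. With its header the table has 65536 lines, a row limit of older spreadsheets, so it may be cut, and isoforms beyond it were not analysed here. FPKM holds no read counts, so depth is unknown and no counting error is given. Because Cufflinks models how reads split among overlapping isoforms, the values of isoforms of a gene depend on each other.

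Of the rows, 21 were dropped (14 with text, 7 with the same nonzero value throughout), and 5 decimal commas were read as points. Of the identifiers, 1 matched the reference gene tables, and it did not pass the filter. Groups and replicate numbers came from the titles. Values were taken as log2(FPKM + 1) and fitted with limma 3.58.1 (R 4.3.3) as 4 group means over 8 libraries (eBayes, trend on mean level; degrees of freedom 4 residual and 2.65 prior; Benjamini-Hochberg over 15531 isoforms, threshold 0.05). Named isoforms were called, without overlap of groups, averaging 5 FPKM or more in their higher group and never under 1 FPKM in total RNA, ranked by size, 2 per direction since they have no gene names. In simulated data on 15531 isoforms, the total RNA test recovered 52 of 100 isoforms with a 2-fold change and 89 of 100 with a 4-fold change. Of its calls there, 6.62% were unchanged isoforms. These values hold for the simulated data only and are not the error share of the calls reported here. Comparisons, rules and lists were chosen with earlier results of these data known. Plots used matplotlib 3.10.9.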

Additional observations from a re-analysis of the deposited data

Results flagged for a closer look

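Among the isoforms called in total RNA, the change with DDX3X siRNA differed between total and polysomal RNA, by the test of the difference itself (limma adjusted p under 0.05), for 8 that rose and 4 that fell, and 0.116% of all tested isoforms passed it. The isoforms were chosen on total RNA values that this test also contains, so the shares are not compared. Of these, 5 of the 8 and all 4 that fell were listed at 0 in all polysomal libraries, so their difference comes from total RNA alone. The other 3 rises were above 0 in every library. The first rose from 14.4 to 27.0 FPKM in total RNA and was at 9.03 and 5.78 FPKM in polysomal RNA (group means with control and DDX3X siRNA; log2 difference -1.43, limma adjusted p = 0.0489). The second rose from 0.972 to 8.55 FPKM and was at 1.78 and 1.37 FPKM in polysomal RNA (-2.51, limma adjusted p = 0.0288). The third rose from 0.293 to 20.5 FPKM and was at 51.0 and 36.0 FPKM in polysomal RNA (-4.50, limma adjusted p = 0.0468). Whether the low control value of the third in total RNA is a failed estimate was not tested. In all 3 the polysomal mean was lower with DDX3X siRNA while the total RNA mean was higher.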

How the results depend on the processing

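Beside 87 rises and 33 falls, a pseudocount of 0.1 gave 134 and 64, no filter 119 and 86, a filter at 5 FPKM 169 and 112, isoforms above 0 in all 8 libraries 152 and 92, median-of-ratios scaling 248 and 217, quantile normalization 298 and 222, and robust eBayes 165 and 103. No intensity trend gave 27 and 7, and the 4 total RNA libraries alone 10 and 5. A pseudocount of 5 gave 82 and 32. With the replicate block there were 15 rises and 6 falls over 8 libraries, and 0 and 0 on the 4 total RNA libraries (limma; 1714 and 1167 at an unadjusted p under 0.05). Replicates with the same number did not deviate together in total RNA (r = -0.0523 across isoforms, and -0.112 at a mean of 5 FPKM or more). Such a correlation cannot show whether the libraries were paired, so the replicate block may or may not apply. Without single libraries (filter applied anew), rises ran from 0 to 154 and falls from 1 to 81. Of the 87 rises, 83 and 86 were called after median-of-ratios and quantile scaling, as were 32 and 32 of the 33 falls. Other settings kept far fewer of them. With no filter, 39 of the 87 rises and 14 of the 33 falls were called. On the 4 total RNA libraries alone, 4 of the 87 and 2 of the 33 were. Which isoforms are called thus depends on the setting too.

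Of the called isoforms with a polysomal value, 82.0% (91 of 111) had the same sign there. The share was 57.1% with no filter, 90.1% with a filter at 5 FPKM, 64.0% (16 of 25) with no intensity trend and 66.7% (8 of 12) with the replicate block. Without single libraries it ran from 37.5% to 84.0%, over 2 to 226 isoforms, and without DDX3X total RNA replicate 2 it had no value, since all 8 calls were listed at 0 in polysomal RNA. Chosen on the total RNA libraries alone it was 78.1%. The causes of these shifts were not tested. Depth is unknown, so what it limits cannot be given.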
